A study of Mus musculus with 768 samples.

Results

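Mia, Scrg1, 1500015O10Rik, Plekhb1, Trf, Lbp, Extl1 and Casp1 are 8 of the 24490 endogenous genes counted in single fibroblasts of mouse mammary tumors, and they are described here in all 727 of 768 wells that held at least 10000 reads besides the spiked-in ERCC control RNAs. They were picked by symbol because reads of these cells had tied them to a small group, the developmental cancer-associated fibroblasts (dCAFs), and Mia and Scrg1 were the genes used to mark that group. Their difference between that group and other cells is therefore a description and was not tested. The cells came from tumors of 14-week-old FVB/N-Tg(MMTVPyVT)634Mul/J mice (MMTV-PyMT), in which the MMTV promoter drives the polyoma middle T oncogene in the mammary epithelium. Whether a sorted cell came from the stroma or from the carcinoma was not tested. Cells negative for EpCAM, CD45, CD31 and NG2 were sorted 1 to a well and sequenced with Smart-seq2, a full-length RNA protocol. There was 1 group and no untreated or treated arm. The replicates are the 2 tumors, which had a plate each, and tumor and plate cannot be told apart.

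Mia encodes a small secreted protein of chondrocytes and melanoma cells that was named for melanoma inhibitory activity, and Scrg1 encodes a small secreted protein linked to chondrogenesis. 1500015O10Rik, which RefSeq names Ecrg4, encodes the precursor of secreted augurin peptides, Trf encodes transferrin, the iron carrier of plasma, and Lbp encodes the acute phase protein that hands bacterial lipopolysaccharide to its receptors. The other three products are not secreted signals. Plekhb1 is a membrane-associated protein with a pleckstrin homology domain, Extl1 is a glycosyltransferase of the exostosin family that builds heparan sulfate chains, and Casp1 is the inflammasome protease that matures interleukin-1β.

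The genes lie at separate loci of GRCm38, the assembly of mm10, and no other annotated gene overlaps any of them. Mia spans chr7:27179741-27181149, Scrg1 chr8:57455882-57479360, 1500015O10Rik chr1:43730602-43742564 and Plekhb1 chr7:100643896-100662394. Trf spans chr9:103208876-103230286, Lbp chr2:158306493-158332852, Extl1 chr4:134356373-134372547 and Casp1 chr9:5298517-5307281. RefSeq promoter windows of GRCm38.p6, each running from 250 bases before to 50 after an annotated start, were matched for 5 of the genes. The 250 bases upstream of the start are shown for Mia and Extl1, which were read almost only in the Mia- and Scrg1-bearing cells, and for 1500015O10Rik and Casp1, which were also read in many matrix-type cells. The windows are chr7:27181100-27181399 (minus strand) for Mia, chr4:134372498-134372797 (minus strand) for Extl1, chr1:43730352-43730651 (plus strand) for 1500015O10Rik and chr9:5298267-5298566 (plus strand) for Casp1, and each sequence reads 5′ to 3′ toward the start. Capitals mark the only motif match found in them.
Mia: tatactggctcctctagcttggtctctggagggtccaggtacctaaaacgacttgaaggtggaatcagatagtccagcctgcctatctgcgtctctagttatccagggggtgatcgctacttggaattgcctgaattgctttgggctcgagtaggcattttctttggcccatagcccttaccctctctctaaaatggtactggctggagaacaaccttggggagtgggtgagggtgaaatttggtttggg
Extl1: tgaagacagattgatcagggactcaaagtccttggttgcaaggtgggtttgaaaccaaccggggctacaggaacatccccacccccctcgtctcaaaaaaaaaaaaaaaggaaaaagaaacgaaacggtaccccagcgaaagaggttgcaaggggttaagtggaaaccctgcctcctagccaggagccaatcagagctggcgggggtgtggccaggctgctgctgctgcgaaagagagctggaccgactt
1500015O10Rik: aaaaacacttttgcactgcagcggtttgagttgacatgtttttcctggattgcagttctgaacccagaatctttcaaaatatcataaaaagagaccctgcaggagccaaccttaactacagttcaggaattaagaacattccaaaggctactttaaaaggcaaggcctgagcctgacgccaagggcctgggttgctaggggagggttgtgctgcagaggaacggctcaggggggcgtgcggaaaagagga
Casp1: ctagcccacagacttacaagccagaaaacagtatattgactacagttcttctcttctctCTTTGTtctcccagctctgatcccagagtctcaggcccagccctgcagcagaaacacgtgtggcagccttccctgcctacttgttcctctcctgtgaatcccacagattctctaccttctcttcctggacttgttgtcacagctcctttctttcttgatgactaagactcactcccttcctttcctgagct

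These windows were searched on both strands for the Sox-type words AACAAT and ACAAAG and for the TATA word TATAAA, which do not contain one another. Of 32851 mouse promoter windows of the same length, 10.7% held AACAAT, 18.7% held ACAAAG and 13.6% held TATAAA. Among the 6 windows of the 5 genes, ACAAAG occurred on the reverse strand, read as CTTTGT above, 191 bases upstream of the Casp1 start and 230 bases upstream of the second of the Plekhb1 starts, and no other match was found. The GC content was 50.7% for Mia, 55.3% for Extl1, 50% for 1500015O10Rik and 48% for Casp1, beside a median of 52.7% over all windows.

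A cell was called positive when it held at least 5 reads of Mia and at least 5 of Scrg1. This gave 8 of 373 cells in tumor 1 (2.14%, exact 95% interval 0.930 to 4.18%) and 13 of 354 in tumor 2 (3.67%, 1.97 to 6.20%), or 2.91% ± 1.08 (SD, n = 2 tumors). A further 24 cells, 5 in tumor 1 and 19 in tumor 2, held a read of either gene but missed that rule and are called intermediate. The remaining 682 cells had no read of either gene. They were divided by whether 10 vascular or 12 matrix CAF markers of the study had the higher mean level, which put 516 on a vascular and 166 on a matrix side. This is a range rather than a type, and 20 of the 682 lay within 1 log2 unit of the cut. The cells just inside the positive rule had 6 reads of Mia with 12 of Scrg1, 132 with 13 and 114 with 14. The cells just outside it had 3 with 12, 2 with 87 and 1 with 5. Intervals cover counting error only, since Smart-seq2 gives no molecular identifiers.

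The positive cells were somewhat deeper, with a median of 263513 endogenous reads beside 207434 in the cells without Mia or Scrg1. Positive cells had more genes with a read, with medians of 5079 in tumor 1 and 6584 in tumor 2 against 4206.5 and 4390. Detection was therefore also read after each cell had been thinned to 50000 reads. Genes that the study ties to dCAFs and that were not used for the rule were present, with Sox9 read in 19 of 21 positive cells, Spint2 in 19, Sox10 in 18, Mme in 12 and C5ar2 in 10. Although the cells had been sorted as EpCAM-negative, Epcam was read in 4 of the 21 positive cells and in 47 of the 682 cells without Mia or Scrg1, and no doublet caller was run here after the doublet gate of the sort.

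Where the reads of the 8 genes lay divided them into 2 kinds. The positive cells, 2.89% of all cells, held 95.7% of the 2991 reads of Mia and 92.9% of the 1797 of Scrg1, which the rule itself sets. They also held 88.9% of the 1856 reads of Extl1, 84.6% of the 3832 of Plekhb1 and 81.0% of the 83420 of Trf. In contrast, they held only 46.9% of the 5839 reads of Casp1, 31.5% of the 41109 of 1500015O10Rik and 28.4% of the 12683 of Lbp. For these 3 genes the matrix side held 39.8%, 61.0% and 54.0% of the reads, and the vascular side held 2.14%, 1.15% and 2.18%. For Extl1 and Plekhb1 both sides together stayed small, with 0.377% and 3.34% of the reads on the matrix side and 0.162% and 4.52% on the vascular side.

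**Figure D1:**
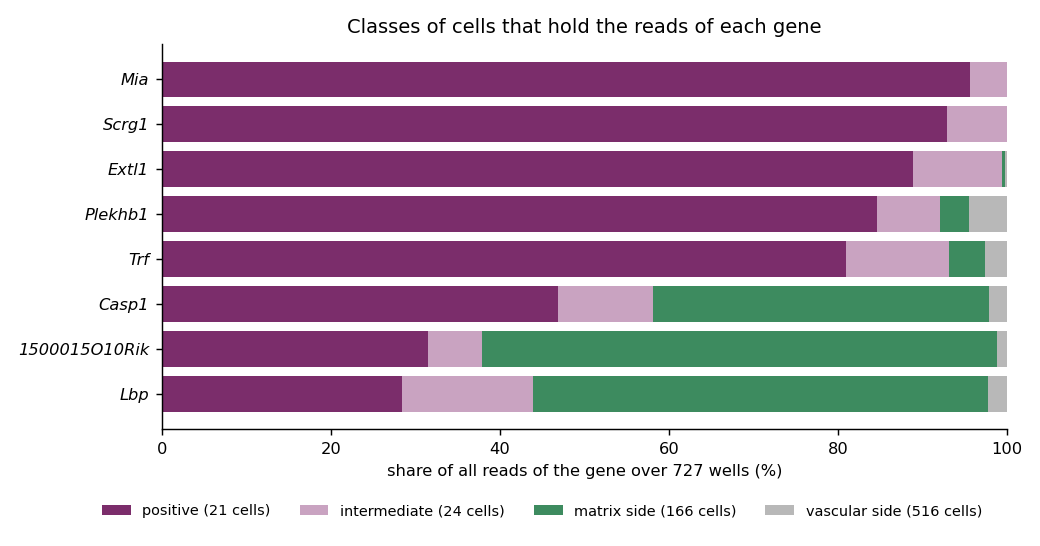
Bars give, for each gene, the share of its reads over 727 wells (%) that lay in positive cells, intermediate cells and the matrix and vascular sides. Mia, Scrg1, Extl1, Plekhb1 and Trf had over 80% of their reads in the 21 positive cells, whereas 1500015O10Rik and Lbp had most of theirs on the matrix side.

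In the positive cells, levels are given per gene length, as log2(RPKM + 1) averaged over the cells of each tumor. Trf stood highest with 11.1 ± 0.59 (SD, n = 2 tumors for all of these). It was followed by 1500015O10Rik with 9.76 ± 1.54, Mia with 9.26 ± 0.43 and Scrg1 with 8.32 ± 0.35. Lower levels were found for Lbp, 7.55 ± 0.02, Casp1, 7.39 ± 0.83, and Plekhb1, 6.30 ± 0.32. Extl1, an enzyme of a synthetic pathway, was the lowest with 4.90 ± 1.00. The order of neighbours turned between the tumors for 1500015O10Rik and Mia, which differed by -0.89 in tumor 1 and 1.89 in tumor 2, and for Lbp and Casp1, which differed by 0.73 and -0.42. All other neighbours kept their order in both tumors, although the higher gene led in only 11 of 21 cells for Casp1 over Plekhb1 and in 15 or 16 for the rest.

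**Figure D2:**
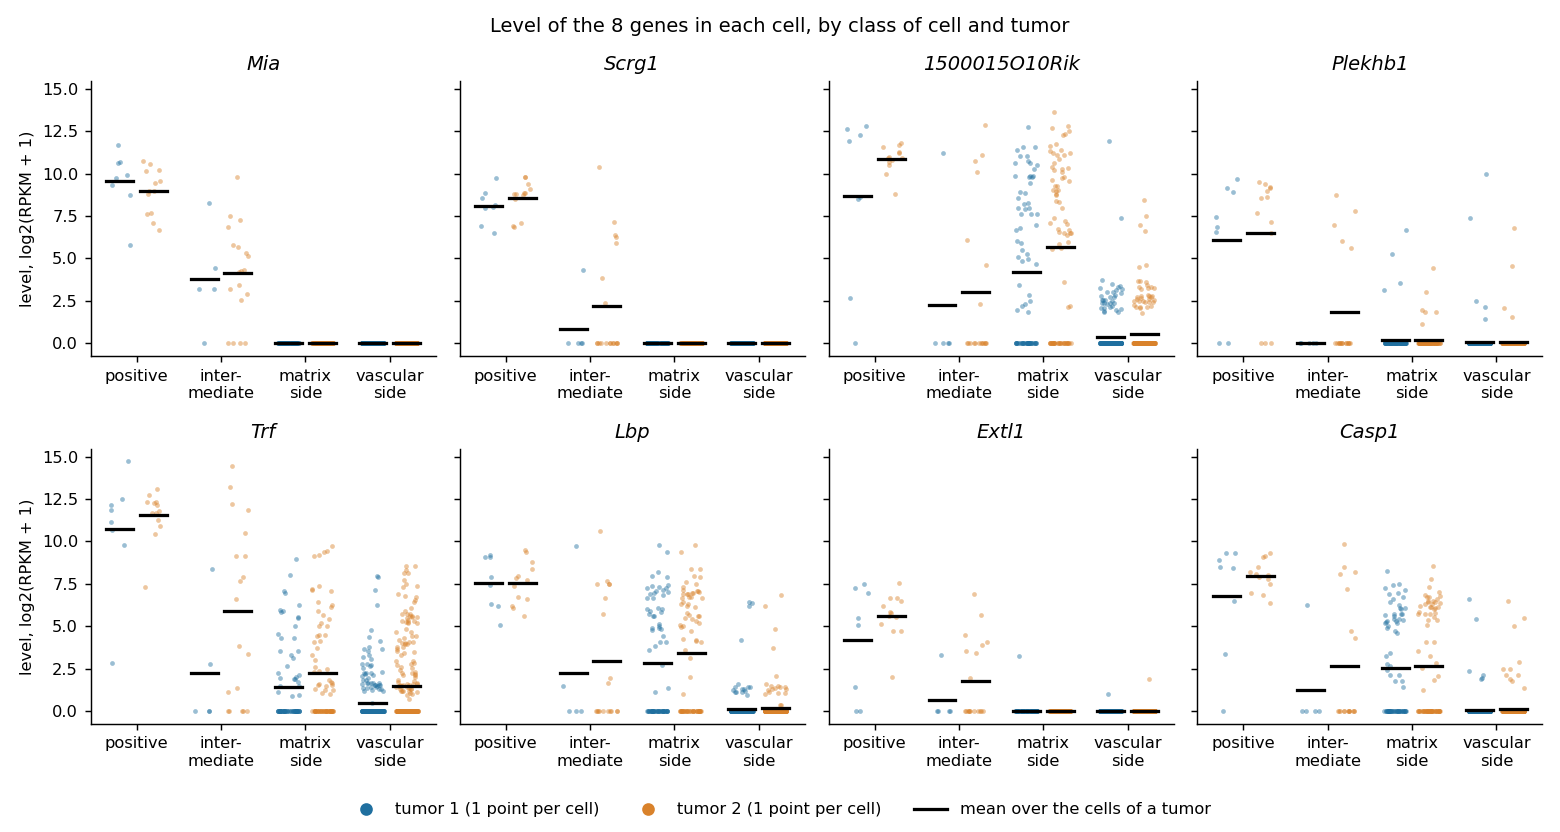
Each panel shows 1 gene, with log2(RPKM + 1) on the vertical axis, 1 point per cell, tumors in color and the mean over the cells of a tumor as a bar. Mia and Scrg1 were absent from both sides by the rule, the tumor means of Extl1 and Plekhb1 were near 0 there, with single Plekhb1 cells up to 9.95, and 1500015O10Rik, Lbp and Casp1 were spread from 0 up to the range of the positive cells on the matrix side.

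The marker genes themselves varied widely among positive cells. Mia reads ran from 6 to 460 with a median of 193 in the 8 cells of tumor 1. They ran from 15 to 219 with a median of 88 in the 13 of tumor 2, within the range of tumor 1. Scrg1 reads ran from 12 to 269 with a median of 53 in tumor 1 and from 13 to 167 with a median of 83 in tumor 2. Mia was the higher of the pair in 15 of 21 cells, and their levels had a Pearson correlation of -0.13 over the 21 cells. Neither gene had a read in any of the 516 vascular-side or 166 matrix-side cells, which the rule fixes.

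Trf gave the most reads of all 8 genes. In tumor 1 its reads ran from 3 to 22792 with a median of 2050, and in tumor 2 from 51 to 5052 with a median of 2240. Well C11 of tumor 1 alone held 27.3% of all Trf reads, and well G21 of the same tumor held only 3. Trf was read in 21 of 21 positive cells, and every one of the 31 cells with an Extl1 read also had a Trf read.

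1500015O10Rik was high in most positive cells but not in all. Its reads ran from 0 to 2522 with a median of 468.5 in tumor 1 and from 144 to 851 with a median of 369 in tumor 2. The low values came from wells F14 and G21 of tumor 1, with 0 and 1 read, while the other 19 positive cells held at least 20. The larger SD of this gene between the tumors thus went with these cells of tumor 1.

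Lbp was the steadiest of the 6 genes not used for the rule. Its reads ran from 24 to 633 with a median of 136 in tumor 1 and from 33 to 322 with a median of 117 in tumor 2. Every positive cell held at least 20 reads of it, which held for no other of the 6. Casp1 reads ran from 0 to 348 with a median of 131 in tumor 1 and from 26 to 327 with a median of 95 in tumor 2, and well H3 of tumor 1, which had the most Mia reads, was the positive cell without any Casp1 read.

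Plekhb1 was either present or absent. It had at least 20 reads in 16 of the 21 positive cells, reaching 363 in tumor 1 and 497 in tumor 2, and 0 reads in the other 5. These were wells G21 and F14 in tumor 1 and wells G18, C17 and D14 in tumor 2, and no positive cell held 1 to 4 reads. Extl1 reads ran from 0 to 280 with a median of 42.5 in tumor 1 and from 1 to 122 with a median of 52 in tumor 2, and G21 and F14 were the cells with none.

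All 6 genes beside Mia and Scrg1 were read together in 15 of the 21 positive cells, 5 of 8 in tumor 1 and 10 of 13 in tumor 2. The mean number of the 8 genes read per positive cell was 7.25 and 7.77. The least complete cells, F14 and G21, held 5 and 6 of the 8 genes, and both also had at least 100 reads of the basal keratins Krt5 and Krt14. At least 100 reads of Krt5 or Krt14 were found in 4 positive cells, all in tumor 1, and these held 6.5 of the 8 genes on average, beside 7.82 in the other 17. The part of basal epithelial RNA in this difference was not tested.

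Within the 21 cells the levels of the 8 genes were only loosely related. Over the 28 pairs Pearson's r ranged from -0.51 for Plekhb1 with Lbp to 0.81 for 1500015O10Rik with Extl1, with a median of 0.20, and 7 pairs lay below 0. Spearman's rho for the highest pair was 0.64. The values share wells and depth, and are given as a description over 21 cells of 2 tumors.

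**Figure D3:**
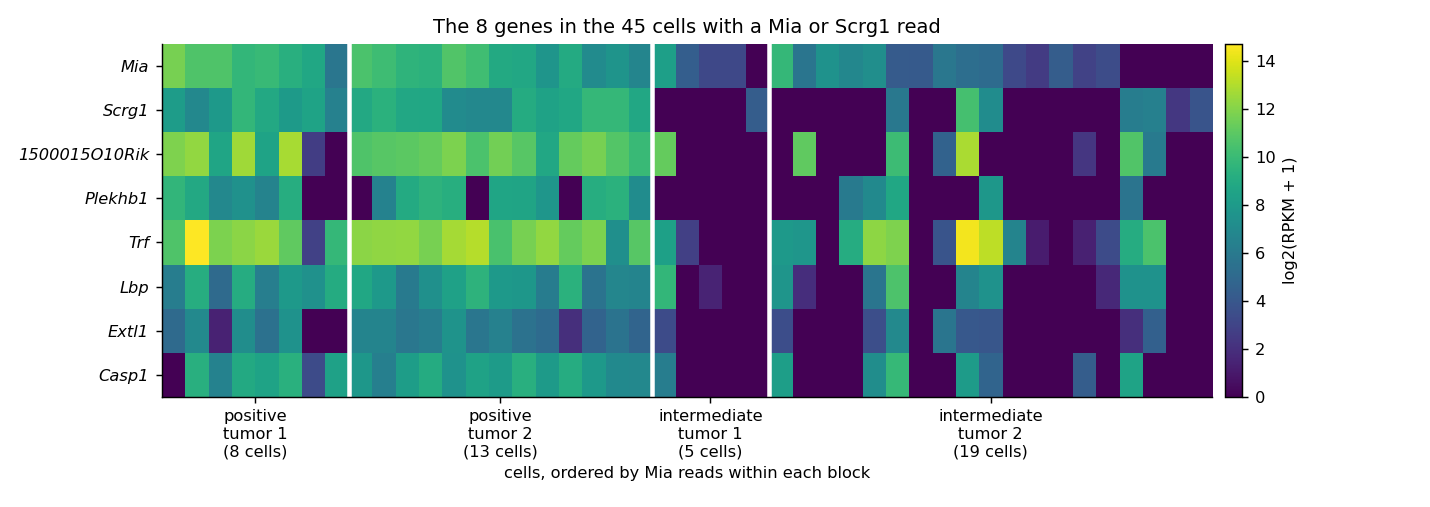
Columns are the 45 cells with a Mia or Scrg1 read, ordered by Mia reads within each tumor, lines are the 8 genes, and color gives log2(RPKM + 1). The 21 positive cells held most genes in every column, with gaps in Plekhb1 for 5 cells, whereas the 24 intermediate cells ranged from all 8 genes to 1.

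The intermediate cells were of different kinds. Of the 24, 16 had a read of Mia alone, 5 of Scrg1 alone and 3 of both with fewer than 5 of at least 1. The 3 cells with both genes each held at least 3 of the other 6 genes at 5 reads or more. For example, well I22 of tumor 2 held 3 reads of Mia and 12 of Scrg1, but 2550 of Trf, 1164 of Lbp, 410 of Casp1, 282 of 1500015O10Rik, 230 of Plekhb1 and 145 of Extl1. Its Lbp, Extl1 and Casp1 counts were the highest of tumor 2. Well J8 of tumor 2, with 2 reads of Mia and 87 of Scrg1, held 4755 of Trf and 596 of 1500015O10Rik but none of Plekhb1. In contrast, 9 intermediate cells rested on 1 read of Mia or Scrg1, and 7 of these held none of the other 6 genes at 5 reads. All 9 had at least 100 reads of Rgs5, a pericyte and vascular CAF marker, which reached no more than 6 reads in any positive cell. Whether single reads came from the cell itself was not tested.

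Outside the cells with Mia or Scrg1, the 6 other genes reached to very different extents. Of 682 such cells, Extl1 was read in 3, Plekhb1 in 19, Casp1 in 98, Lbp in 123, 1500015O10Rik in 171 and Trf in 217. At 5 reads or more the numbers were 1, 7, 69, 89, 95 and 99. Extl1 and Plekhb1 thus stayed close to the Mia/Scrg1 cells under both counts. Single cells were exceptions for Plekhb1. Its highest count outside was 94 reads in a matrix-side cell, and its highest level was 9.95, from 62 reads in vascular-side well K20 of tumor 1, above the highest positive cell at 9.67. The highest Extl1 count outside was 7.

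1500015O10Rik, Lbp and Casp1 reached to the matrix side. 1500015O10Rik was read in 55.4% of the 83 matrix-side cells of tumor 1 (exact 95% interval 44.1 to 66.3%) and in 63.9% of the 83 of tumor 2 (52.6 to 74.1%), beside 12.3% and 15.9% of the vascular-side cells. At 5 reads or more it was found in 89 of 166 matrix-side and 6 of 516 vascular-side cells, so most vascular-side detections were of 1 to 4 reads. Its highest matrix-side counts were 1288 and 2119 reads in tumors 1 and 2, within or above the range of the positive cells. Its level was 4.50 ± 0.93 log2 units higher on the matrix than on the vascular side (SD, n = 2 tumors), and 4.81 ± 0.50 higher in positive than in matrix-side cells.

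Lbp was read in 48.2% and 56.6% of the matrix-side cells of tumors 1 and 2, and in 5.78% and 8.37% of the vascular-side cells. Casp1 was read in 49.4% and 48.2% on the matrix side, and in 2.17% and 4.60% on the vascular side. The matrix-minus-vascular difference in level was 2.99 ± 0.39 for Lbp and 2.49 ± 0.05 for Casp1, with the same sign in both tumors. The highest matrix-side counts of Lbp, 489 and 701 reads, reached the positive range, while those of Casp1, 144 and 153 reads, lay below the highest positive cells. After thinning to 50000 reads, matrix-side detection was 53.9% for 1500015O10Rik, 50.7% for Lbp and 43.5% for Casp1, beside 5.17%, 2.48% and 2.07% on the vascular side, with 12 and 32 shallower cells left out. These differences carry no test, since the sides were drawn with markers that the study chose on these cells.

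In matrix-side cells the 3 genes were often read without one another. At 5 reads or more, 30 of 166 matrix-side cells held none of the 3, 63 held 1, 48 held 2 and 25 held all 3. On the vascular side 498 of 516 held none and 0 held all 3, which allows a share of up to 0.581%. 1500015O10Rik and Lbp were found together in 47 matrix-side cells, where the product of their single shares comes to 43.4, and 1500015O10Rik and Casp1 in 36, where it comes to 34.3. Lbp and Casp1 met in 40 cells, with a product of 31.2, and their levels correlated by 0.11 and 0.24 within tumors 1 and 2 (83 cells each), compared with -0.10 and 0.13 for 1500015O10Rik and Lbp. Cells with all 3 genes were deeper, with a median of 294424 reads beside 238762 in those with none.

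Trf behaved otherwise than the other genes outside the positive cells. It was read in 18.1% of vascular-side cells of tumor 1 and 39.3% of tumor 2, and in 37.3% and 50.6% of matrix-side cells. At 5 reads or more the shares were 4.33% and 18.8% on the vascular side and 20.5% and 30.1% on the matrix side. The highest counts were 161 reads on the vascular and 712 on the matrix side, far under the medians of the positive cells. The level was higher on the matrix side by 0.98 in tumor 1 and 0.75 in tumor 2.

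Low Trf reads were more frequent in the row and column of the richest well on the plate. In tumor 1, 1 to 4 Trf reads were found in 12 of the 23 other wells in the row of C11 (52.2%) and 8 of 15 in its column (53.3%), but in 33 of 334 elsewhere (9.88%). In tumor 2, where H23 had the most reads, the same held for 13 of 23 wells of its row (56.5%), 6 of 15 of its column (40.0%) and 51 of 315 elsewhere (16.2%). Vascular-side cells outside that row and column had a Trf read in 13.8% of 253 cells in tumor 1 and 36.4% of 209 in tumor 2, against 62.5% of 24 and 60% of 30 within them. At 5 reads or more the shares elsewhere were 4.35% and 19.6%. That set still held the rows and columns of other Trf-rich wells, such as J8 with 4755 and M11 with 4356 reads in tumor 2. Whether the difference between the tumors went with such wells was not tested. For 1500015O10Rik, 1 to 4 reads were found in 26.1% of wells in the row and 21.4% in the column of its richest well in tumor 2, beside 9.81% elsewhere, and in 17.4%, 14.3% and 10.2% in tumor 1. For Lbp the tumors differed, with 14.3%, 6.67% and 5.36% in tumor 2 and 0 of 23, 0 of 7 and 4.68% in tumor 1. Casp1 had 14.3%, 6.67% and 4.10% in tumor 2 and 8.70%, 13.3% and 2.99% in tumor 1, from 1 to 3 such wells in each row or column. The source of the low reads was not tested.

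**Figure D4:**
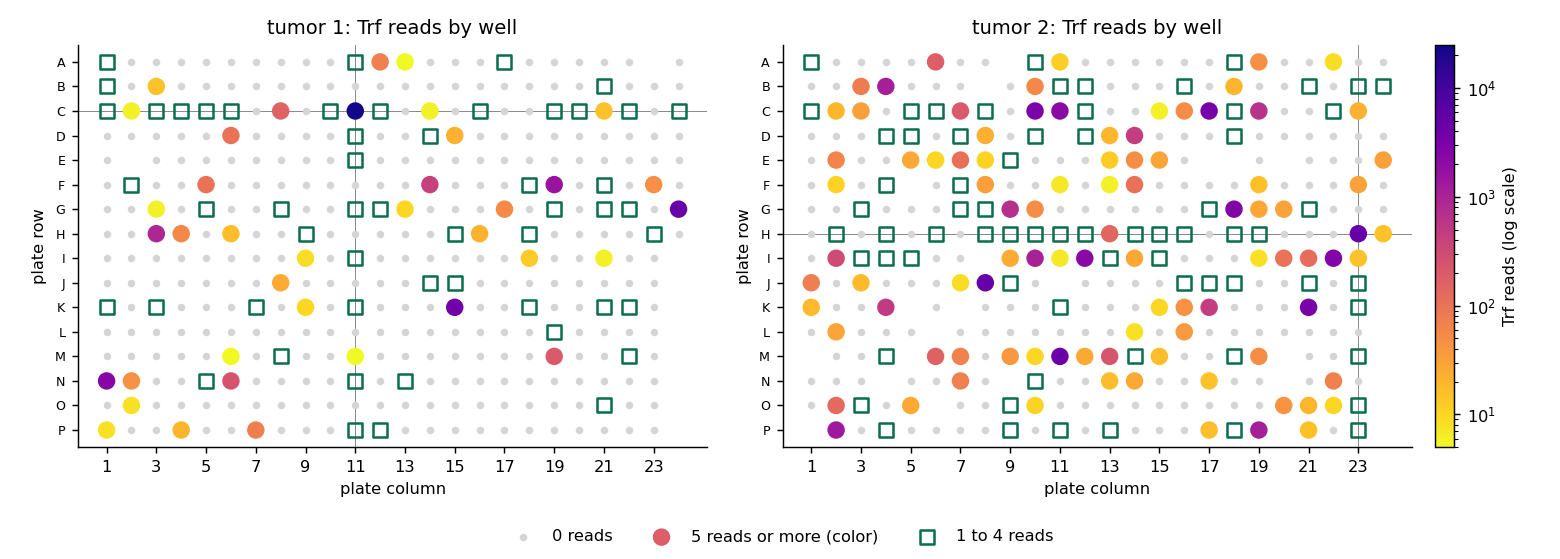
Plate maps of both tumors, with rows and columns of wells on the axes. Filled circles are wells with 5 Trf reads or more on a log color scale, open squares wells with 1 to 4 reads, and gray lines cross at the well with the most reads, C11 in tumor 1 and H23 in tumor 2. Open squares lined these rows and columns, at 40.0% to 56.5% of their wells.

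The genes whose pattern over all wells was most like that of Mia and Scrg1 were ranked by Pearson's r of log2(RPKM + 1) with their mean, averaged over the tumors (373 and 354 cells), among the 11715 genes whose RPKM averaged 1 or more. Extl1 came first with 0.87. It was followed by the collagen IX chain Col9a3 with 0.85, Aim1 with 0.79, the cartilage leucine-rich protein Chad with 0.77, the glutamine transporter Slc38a3 with 0.76 and the neural crest factor Sox10 with 0.76. Cbr2 (0.75), the Wnt receptor Fzd9 (0.74), Eps8l2 (0.74) and the R-spondin receptor Lgr6 (0.73) closed the first 10. Plekhb1 stood at rank 16 with 0.71 and Trf at rank 30 with 0.66, while Casp1 (rank 85, 0.51), Lbp (rank 104, 0.48) and 1500015O10Rik (rank 138, 0.41) came later. Such values rest on a few cells with high levels and are a description.

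The nearest neighbours of each gene divided in the same way. Mia was nearest to Scrg1 (0.84), Extl1 and Col9a3, and Plekhb1 to Extl1 (0.73), Aldoc and Scrg1. Trf was nearest to the transcription factor Tfap2b (0.65), Extl1 and Mia. In contrast, 1500015O10Rik had Pdpn (0.58) and Col11a1 (0.58) among its nearest, and Lbp and Casp1 each had the other, Dclk1 and Gpm6b as their 3 nearest.

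To ask what else set the Mia/Scrg1-positive cells apart, reads were summed per tumor over the positive cells and over all other cells, and the 4 sums were compared with edgeR's quasi-likelihood test. Sums do not separate fewer expressing cells from less RNA per cell. At a Benjamini-Hochberg adjusted p of 0.05 the test called 641 of 11715 genes (5.47%), 217 higher (1.85%) and 424 lower (3.62%) in the positive cells. Of the tested genes 127 averaged under 1 RPKM in the 706 other cells, and 41 of the 217 higher calls were among them. A gene of this kind entered the test through its level in the positive cells, so its difference is a description. With 2 tumors the spread is between 2 sums per class and may be in part technical. Of 52 named genes that passed, 18 missed the threshold with ERCC totals as the library size, among them Sox9, Cp, Slc40a1, Ndst3, Sulf2, Ehf, Cldn3, Lgr6, Vcan and Mki67. A further setting, at least 20 reads of both genes in a positive cell, took the call from 13, cells scaled to the same total from 12, and leaving out wells with an Epcam read from 9.

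Of the genes beside the members that the study ties to dCAFs, 3 of 4 tested rose and 0 fell. Sox10 rose by 7.04 on the log2 scale (SE 0.42, edgeR adjusted p = 0.009), Spint2 by 4.93 (SE 0.61, edgeR adjusted p = 0.031) and Sox9, the chondrocyte regulator, by 4.63 (SE 0.67, edgeR adjusted p = 0.04). The neprilysin gene Mme had 2.07 (edgeR adjusted p = 0.069). The study chose this list on the same cells, so it is not independent evidence of its direction, and without wells holding an Epcam read the adjusted p was 0.075 for Spint2 and 0.08 for Sox9.

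None of the 2 tested relatives of Mia passed the test, 0 of 2 in each direction, with a median log2 difference of 3.33. Otor, a secreted paralog known from the cochlea, was read in 1 of 8 positive cells of tumor 1 and 9 of 13 of tumor 2, and in 4 of 682 cells without Mia or Scrg1, so its tumors differed more than those of any member. Mia3, which acts in collagen export, had -0.49 (edgeR adjusted p = 0.42). With the tumor as a block Otor passed (7.15, edgeR adjusted p = 0.064, 0.0072 with the block).

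Around transferrin, 13 genes of iron handling were tested, of which 2 rose and 1 fell, with a list median of 0.27 beside -0.13 over all genes. Fth1, the ferritin heavy chain that stores iron, rose by 3.70 (SE 0.29, edgeR adjusted p = 0.014) and was read in every positive cell with 142 to 8372 reads in tumor 1 and 298 to 6629 in tumor 2. Cp, the ferroxidase ceruloplasmin, rose by 3.41 (SE 0.29, edgeR adjusted p = 0.016), from 54 to 844 reads in tumor 1 and from 16 to 1516 in tumor 2. The iron exporter Slc40a1 fell (edgeR adjusted p = 0.04), with 1 read in the positive cells of both tumors together, and missed the threshold under 4 of 10 alternatives. The transferrin receptor Tfrc, at 2.14 (edgeR adjusted p = 0.069), and the ferritin light chain Ftl1, at -0.03 (edgeR adjusted p = 0.95), did not pass.

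Around Lbp, 0 of 10 tested genes of lipopolysaccharide sensing were called in either direction, with a median of -0.34. The coreceptor Cd14 had 3.42, with reads in 5 of 21 positive cells. It averaged under 1 RPKM in the other cells, so its difference is a description. The receptor Tlr4 had -1.13 (edgeR adjusted p = 0.55), with reads in 3 positive cells. Of 8 other acute phase and defence genes 0 were called, with a median of -3.42. Lcn2, the siderophore binder lipocalin 2, was read in all 21 positive cells and in 280 of 682 others, at 4.29 (edgeR adjusted p = 0.064). With the tumor as a block 2 of these 8 were higher and 1 lower, namely Lcn2 (0.028), the protease inhibitor Slpi (0.0081) and the serpin Serpina3n (0.045). Around Casp1, 0 of 7 tested inflammasome genes were called, with a median of 0.41. Casp12 was read in 19 of 21 positive cells and 52.5% of the 682 others, at 1.38 (edgeR adjusted p = 0.061), the adaptor Pycard in 57.1% and 23.5%, and Casp4 in 42.9% and 22.9%. The sensor Nlrp3 and the substrate Il1b had no read in the 21 positive cells (upper limit 14.3% of such cells), while 2 and 1 of the 682 cells without Mia or Scrg1 had one. For these 3 lists DESeq2 called 1, 3 and 2 genes.

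Around Extl1, 1 of 20 tested genes of heparan sulfate synthesis and editing rose and 1 fell, with a median of 0.01. Sulf2, an extracellular sulfatase that trims heparan sulfate, rose by 4.68 (SE 0.50, edgeR adjusted p = 0.023) and was read in all 21 positive cells. The sulfotransferase Ndst3 had no read in the positive cells and was at least 127-fold lower there (edgeR adjusted p = 0.022), with 3 reads over the class as the floor. Ext1 and Ext2, the chain polymerases, had -1.02 and 0.13 and did not pass.

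The cartilage list, the setting in which Mia and Scrg1 are known, had 4 of 9 tested genes higher and 0 lower, with a median of 5.71. Comp and Lect1, which are 2 of these 4, averaged under 1 RPKM in the other cells, so the count and the median are a description. The collagen IX chain Col9a3 rose by 7.46 (SE 0.71, edgeR adjusted p = 0.019, 0.081 with cells scaled to the same total), and Sox9 lost its call with ERCC totals (edgeR adjusted p = 0.058). The cartilage matrix protein Comp had a difference of 7.91 and was read in 4 of 8 positive cells of tumor 1 and 7 of 13 of tumor 2, with 1168 of the 1400 reads of tumor 1 in a single cell. Lect1, which encodes chondromodulin, had 890 reads in 9 positive cells and 0 in the 706 other cells, at least 8480-fold higher. With 20 reads of both genes as the class minimum neither Lect1 nor Comp passed (edgeR adjusted p = 0.12 and 0.051). Epyc, a proteoglycan of cartilage, had no read in the 21 positive cells (upper limit 14.3% of such cells). It was read in 22 of 682 cells without Mia or Scrg1 (3.23%), so its detection gives no direction. Its summed reads were lower in the positive cells (edgeR adjusted p = 0.062, called lower by DESeq2). Col9a1 was read in 17 of 21 positive cells and passed with the tumor as a block (edgeR adjusted p = 0.068, 0.0097 with the block). The cartilage collagen Col2a1 was read in 5 and the core protein Acan in 1 of the 21 cells. For Schwann cells and melanocytes, 2 of 5 tested genes rose, Sox10 and S100b (6.74, SE 0.66, edgeR adjusted p = 0.021, 0.072 with 20 reads of both genes), 0 fell, and Mlana, Tyr and Dct had no read in any positive cell.

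Markers of other mammary cells moved with some of these cells. Of 15 luminal epithelial genes tested, 4 rose and 0 fell, with a median of 1.34: the cadherin Cdh1 by 4.46, the transcription factor Ehf by 4.09 (edgeR adjusted p = 0.033), the claudin Cldn3 by 3.31 (edgeR adjusted p = 0.042) and Spint2. Cdh1 averaged under 1 RPKM in the other cells, so its difference is a description. All 4 missed the threshold without wells holding an Epcam read, and with the tumor as a block Cdh1 had 0.065 and Cldn3 0.08. The summed level of the 21 luminal genes ran from 6.73 to 13.72 in positive cells and from 0 to 15.15 in cells without Mia or Scrg1. The luminal keratins Krt7, Krt8 and Krt18 were read in 1, 3 and 5 of 21 positive cells, and the casein Csn2 in none. The casein Csn3 was read in 18 of 21 positive cells, with 19699 reads in all and up to 8833 in 1 cell, and in 270 of 682 cells without Mia or Scrg1, at 5.22 (edgeR adjusted p = 0.07, 0.012 with the tumor as a block). The part of luminal RNA in these results was not tested.

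Of 8 basal epithelial genes tested 0 were called, with a median of 6.48 and DESeq2 calling 6. Krt5 and Krt14 were each read in 5 of 21 positive cells. Krt17 was read in 1, Col17a1 in 5, the smooth muscle gene Cnn1 in 8 and Dsc3 in none. A few of the list were read in more of them. The oxytocin receptor Oxtr was read in 13 of 21 and in 8 of 682 cells without Mia or Scrg1, with a difference of 8.75. The integrin chain Itgb4 was read in 13 and 14 cells, at 5.28, and the transcription factor Trp63 in 11 and 8, at 7.17. The smooth muscle myosin Myh11 went the other way, read in 4 of 21 and 344 of 682 cells, at -4.73 (edgeR adjusted p = 0.085). Of the 8 tested genes 5, namely Oxtr, Itgb4, Trp63, Krt14 and Krt17, averaged under 1 RPKM in the 706 other cells. They entered the test through the positive cells, so their values, the list median and the DESeq2 count are a description. The part of basal RNA in the results was not tested. The summed basal level ran from 0 to 12.40 in positive cells and from 0 to 9.54 in the others. Leukocyte genes had 0 of 3 called and no read of Ptprc, endothelial genes had 1 of 4 lower, Flt1, and no read of Pecam1, and adipocyte genes had 2 of 3 lower, Fabp4 and Lpl.

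Of the vascular CAF markers 10 of 10 fell, led by Kcnj8 with -10.93 and Rgs5 with -9.45. Nid2, at -1.67 (edgeR adjusted p = 0.045), lost its call under 5 of 10 alternatives, the block (0.073) included, and Epas1, Nr2f2 and Cspg4 lost theirs with ERCC totals (0.084, 0.082 and 0.074). Of 12 matrix CAF markers 5 fell and 1 rose. Lum fell by 9.14 and Lox by 8.86, while the proteoglycan Vcan rose by 2.19 (SE 0.31, edgeR adjusted p = 0.04, 0.053 with the tumor as a block). Of 8 cell cycle genes Mki67 fell, by 5.41, and 7 were not called. In single cells Mki67 was read in 5 of 21 positive cells (23.8%), with 10 reads in all, and in 94 of 706 other cells (13.3%). These lists come from the study's account of the same cells, and the first and second also drew the sides.

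**Figure D5:**
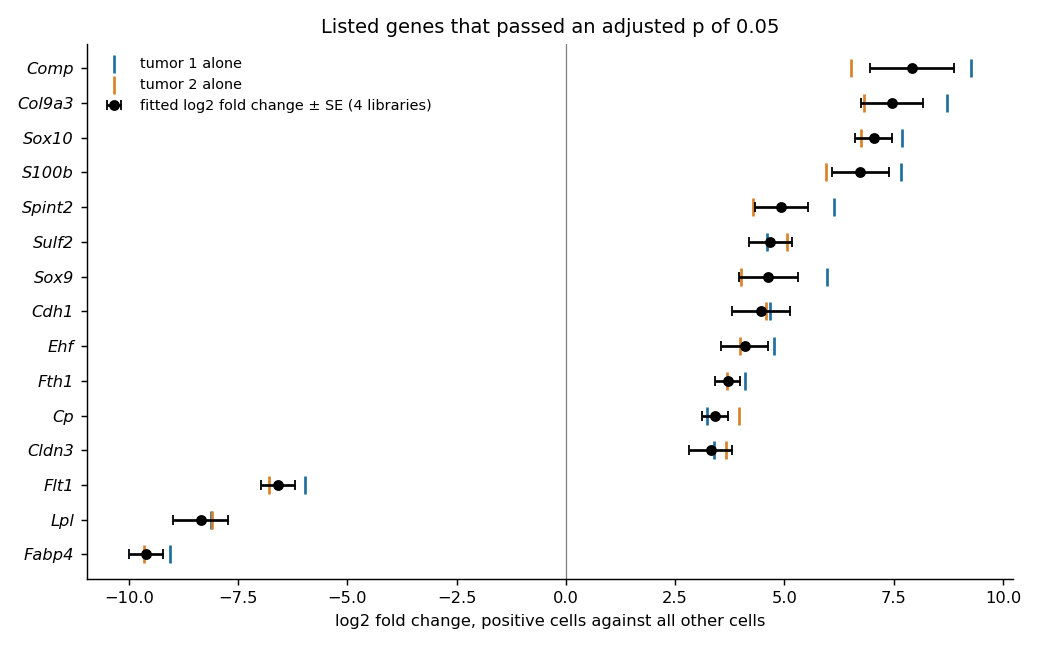
Log2 fold change of summed reads, positive against all other cells, for genes of the pathway and cell type lists that passed an adjusted p of 0.05 and had reads in all 4 sums. Circles with bars are edgeR's estimates with SE. Ticks give each tumor alone, as a log2 ratio of reads scaled by library total and not as an edgeR estimate. Comp at 7.91, Col9a3 at 7.46 and Sox10 at 7.04 lay farthest to the right, and Fabp4 at -9.61 farthest to the left.

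Among genes other than the 8 that were read in at least 50% of positive cells of both tumors, listed genes included, the largest rises that passed the test were those of the glycolytic enzyme Aldoc by 8.58 (SE 0.89, edgeR adjusted p = 0.023, 0.063 without wells holding an Epcam read) and the lipogenic regulator Thrsp by 8.01 (SE 0.78, edgeR adjusted p = 0.021). They were followed by Comp, Lgr6 with 7.91, Rtn1 with 7.66, Col9a3, the acyl-CoA thioesterase Acot1 with 7.27, the proton pump subunit Atp6v0e2 with 7.13, Aim1 with 7.08 and Sox10. Of these 10 genes 5, namely Comp, Lgr6, Rtn1, Atp6v0e2 and Aim1, averaged under 1 RPKM in the 706 other cells, so their values are a description. A further 6 genes read as widely had differences above that of Sox10 but did not pass, among them Slc38a3 with 8.88 (edgeR adjusted p = 0.069) and Col9a1. With 20 reads of both genes as the class minimum the edgeR adjusted p was 0.072 for Thrsp, 0.067 for Rtn1, 0.099 for Lgr6, 0.082 for Aldoc and 0.062 for Aim1. With cells scaled to the same total it was 0.057 for Thrsp, 0.061 for Atp6v0e2 and 0.14 for Aim1. The 5 strongest falls had no read in any positive cell. They were the amine oxidase Aoc3, at least 431-fold lower, the imprinted RNA Meg3 (226-fold), the protease Adam19 (211-fold), the sarcoglycan Sgce (214-fold) and Bok (210-fold), each as a lower bound from 3 reads over the class.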

How the data were processed

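The data are Smart-seq2 counts of single sorted cells from 2 tumors, 1 plate of 384 wells each. The deposited counts are whole reads per gene, not normalized, for which the authors had mapped reads with STAR and counted them over RefSeq gene models. The submitters' processing notes name mm10 as the build. RPKM, also deposited, is the authors' rescaling of the reads by gene model length and by the mapped total of each well. Tables were read with Python 3.11.15, pandas 2.3.3, numpy 2.4.6 and scipy 1.17.1 and drawn with matplotlib 3.10.9. All 768 wells were mapped by plate, 0 columns were left unused, and 0 wells were identical to another. Wells with at least 10000 endogenous reads were kept (tumor 1 had a median of 219264 with a range of 10281 to 838772, and tumor 2 had a median of 198180 with a range of 10476 to 1190516). The members, the gene lists and the rules were chosen with earlier results of these data known.

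Levels were log2(RPKM + 1), averaged over cells per tumor and then over tumors. Counts summed per tumor and class were tested with edgeR 4.0.16 in R 4.3.3 (TMM, glmQLFit, glmQLFTest, no covariate, on genes whose RPKM averaged 1 or more). The quasi-likelihood test returns no SE. The SE given is the absolute log2 fold change divided by the square root of the test's F value. DESeq2 1.42.0, other scalings, filters, classes and the tumor as a block were alternatives. The positive and other sums of a tumor share their animal and are thus paired, and their deviations from the class means correlated by 0.0594 over 11715 genes. Named were the members, the 10 genes most like Mia and Scrg1, the 3 most like each member, the 10 largest rises read in 50% of positive cells of both tumors, the 5 strongest falls, and up to 4 called genes per list with defining markers at 0. Some genes that these rules pick are not reported here. Further listed genes were named after their values were seen. Exact binomial intervals are 95%, and the limit for a count of 0 was taken as 3 counts. Whether counting used strand is not given in the sources used here.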

Additional observations from a re-analysis of the deposited data

How the results depend on the processing

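The number of genes called between the positive and the other cells varied with the tool, the scale and the threshold. Beside 641 calls, DESeq2 gave 2298 (861 higher, 1437 lower), ERCC totals as library size 223 (88 and 135), wells with an Epcam read left out 372 (112 and 260), and an adjusted p of 0.001 gave 0 by edgeR, with 2878 genes at an unadjusted p under 0.05. Pairing the libraries with the tumor as a block gave 532, and of 52 named genes Cdh1, Cldn3, Vcan and Nid2 lost their call under it. DESeq2 size factors gave 642, no filter 792, other read minima for the class 686 and 449, others without a Mia or Scrg1 read 717, and cells scaled to the same total 442. ERCC scaling moved the median log2 fold change of all genes from -0.13 to 0.55. Over 10 alternatives, 463 of 520 fold changes of the 52 named genes kept direction and call, 57 kept direction only, and 0 turned; the cause was not tested. With the block, genes not called without it passed, among them Otor, Lcn2, Slpi, Serpina3n, Col9a1 and Csn3. With 1 tumor left out no test is possible. The values of each tumor alone are log2 ratios of reads scaled by library total, not edgeR estimates. Of 104 such values 57 differed from the edgeR fold change by more than its SE. Examples are Sox9 at 5.97 and 4.01, Comp at 9.26 and 6.53 and Aldoc at 9.84 and 7.43, on either side of the estimate. For Lect1 (14.14 and 13.31, edgeR 15.61) and Aoc3 (-14.02 and -14.42, edgeR -16.24) they lay on the same side. The 57 thus do not separate the change of measure from leaving out a tumor.

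The share of positive cells, 2.91%, was 4.44% with 5 reads of either gene and 2.14% to 3.67% with 1 tumor left out. The mean number of the 8 genes per positive cell, 7.51, stayed within 7.22 to 7.67, and 7.25 to 7.77 with 1 tumor left out. The number of the other 6 genes per cell without Mia or Scrg1, 0.935, was 0.534 at 5 reads, 0.550 at an RPKM of 10 and 0.660 after thinning, and 0.764 to 1.11 with 1 tumor left out. The median level difference over the 8 genes, 7.48, was 10.1 with a pseudocount of 0.1 and 4.60 with 10, and 7.09 to 7.88 with 1 tumor left out. Leaving out positive cells with an Epcam read, chosen after seeing the data, gave 7.61 genes per cell and a level difference of 7.71. For single genes of the 8, 32 of 90 detection values and 36 of 60 level differences moved by more than the SD between tumors under the alternatives. None of these level differences turned in sign.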
